A study of Mus musculus with 14 samples.

Results

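The expression of 10 genes of the brain endothelium and of vessel remodelling was examined in the brains of 7 wild-type (WT) and 7 Capn15 knockout (KO) mice at postnatal day 2 (P2). The genes were taken by symbol from a list of vascular ligands, receptors and endothelial products, and 10 of 10 were found among the 17927 genes in the deposited counts. They were the angiopoietins Angpt1 and Angpt2, the Tie receptors Tek and Tie1, the growth factor Vegfa, its receptors Kdr and Flt1, and the endothelial products Cldn5, Pecam1 and Mfsd2a. RNA-SEQ of whole, untreated brain was used, with 1 library for each animal. The WT group held 2 females and 5 males, and the KO group held 4 females and 3 males. Both groups came from the same 6 litters, here called A to F, with 4 brains in litter B and 2 in each other litter. Each WT brain shared its number and its litter with a KO brain, which gives 7 numbered pairs, and in litter B the number alone says which brain goes with which. Capn15 is a calpain, an intracellular protease. The mouse lines were on a C57BL/6J background, and the labels give the KO brains only as knockout, without the allele.

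Blood vessels of the newborn brain are still growing and maturing. Angpt1, released by cells around the vessel, activates the endothelial receptor Tek (also called Tie2) and stabilises the vessel. Angpt2, released mainly by endothelial cells at sites of remodelling, binds the same receptor and can oppose Angpt1. Tie1 is a partner receptor of Tek. Vegfa drives endothelial growth through Kdr (VEGF receptor 2), while Flt1 (VEGF receptor 1) binds Vegfa tightly and limits it. Cldn5 is the main claudin of endothelial tight junctions, Pecam1 is an adhesion protein found on all endothelium, and Mfsd2a is the lipid transporter that keeps transport by vesicles low at the blood-brain barrier.

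The libraries held between 37620954 and 70910163 counts (median 43181055 in WT and 50059045 in KO). Values are given in CPM, counts relative to the library total after scaling for library composition, and the members had between 199 and 4530 counts in a library. Capn15 itself ranged from 18.7 to 27.3 CPM in WT and from 12.2 to 20.2 CPM in KO. In 6 of 7 pairs Capn15 was lower in KO, and the pair of litter F went against its labels, with 18.7 CPM in the library labelled WT replicate 7 and 20.2 CPM in the library labelled KO replicate 7. The fitted log2 difference of Capn15 (KO minus WT) was -0.81 (SE 0.118, edgeR FDR 0.0747), and without litter F it was -0.98 (SE 0.0571, edgeR FDR 1.58e-06). The labels call the cell type neurons, and the neuronal marker Tubb3 averaged 2548 CPM, but markers of endothelium, pericytes, glia, blood, meninges and choroid plexus were all present, as in whole brain. In such bulk tissue, fewer cells of a type and less RNA per cell cannot be told apart. The labels name separate brains and no repeated extraction, so p-values measure the spread between these brains.

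In GRCm38 the angiopoietin genes lie apart, Angpt1 at chr15:42424723-42676977 (minus strand, 9 exons) and Angpt2 at chr8:18690263-18741562 (minus strand, 9 exons). Chromosome 4 holds Tek at chr4:94739289-94874976 (plus strand, 23 exons), Tie1 at chr4:118471191-118490061 (minus strand, 22 exons) and Mfsd2a at chr4:122946850-122961188 (minus strand, 14 exons). The VEGF receptors share chromosome 5, with Kdr at chr5:75932827-75978458 and Flt1 at chr5:147561604-147726011 (both minus strand, 30 exons). Vegfa is at chr17:46016993-46032369 (minus strand, 7 exons), Cldn5 at chr16:18776847-18778262 (plus strand, 1 exon) and Pecam1 at chr11:106654217-106750628 (minus strand, 16 exons). Exons are those of the longest transcript.

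Promoter sequences are shown for 4 genes that turned out to vary together across brains, Tie1 with Cldn5 and Kdr with Flt1. Each runs 5′ to 3′ on the gene's own strand, from 250 bases before to 50 bases after the start of transcription (RefSeq, GRCm38.p6). Capitals mark the letters GGAAGT or their reverse complement, ACTTCC, the core bound by ETS factors, a family with many endothelial members. The Tie1 window is chr4:118489800-118490099 on the minus strand, the Cldn5 window is chr16:18776597-18776896 on the plus strand, the Kdr window is chr5:75978406-75978705 on the minus strand and the Flt1 window is chr5:147725962-147726261 on the minus strand.
Tie1: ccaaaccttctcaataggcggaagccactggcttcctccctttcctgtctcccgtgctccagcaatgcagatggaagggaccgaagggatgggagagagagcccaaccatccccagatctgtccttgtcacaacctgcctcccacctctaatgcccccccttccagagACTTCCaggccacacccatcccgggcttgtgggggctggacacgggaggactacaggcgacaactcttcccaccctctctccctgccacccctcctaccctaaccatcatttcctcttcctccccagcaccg
Cldn5: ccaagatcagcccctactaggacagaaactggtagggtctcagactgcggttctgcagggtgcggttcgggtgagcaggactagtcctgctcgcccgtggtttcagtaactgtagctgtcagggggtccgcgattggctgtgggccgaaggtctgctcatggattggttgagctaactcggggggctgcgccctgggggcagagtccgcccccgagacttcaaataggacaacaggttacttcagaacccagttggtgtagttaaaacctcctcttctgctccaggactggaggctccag
Kdr: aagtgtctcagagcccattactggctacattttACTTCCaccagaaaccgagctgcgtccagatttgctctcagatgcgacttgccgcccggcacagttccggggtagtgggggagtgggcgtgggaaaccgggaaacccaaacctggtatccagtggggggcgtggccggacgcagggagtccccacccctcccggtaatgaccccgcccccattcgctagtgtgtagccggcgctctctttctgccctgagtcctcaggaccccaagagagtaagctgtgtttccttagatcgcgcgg
Flt1: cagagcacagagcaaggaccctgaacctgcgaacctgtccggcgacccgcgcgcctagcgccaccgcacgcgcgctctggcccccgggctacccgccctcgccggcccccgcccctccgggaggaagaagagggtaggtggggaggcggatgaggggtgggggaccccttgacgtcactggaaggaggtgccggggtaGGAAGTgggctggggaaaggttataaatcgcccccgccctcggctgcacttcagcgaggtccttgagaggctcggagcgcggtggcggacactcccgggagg

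The ETS letters were found once each in the Tie1, Kdr and Flt1 windows, and the Cldn5 window did not hold them. Over all 8 promoter windows at hand, which belong to Tek, Tie1, Vegfa, Kdr, Flt1, Cldn5 and Mfsd2a, 4 held these letters on either strand, beside 23.8% of 32851 promoters of the same length. The letters TGTTTAC, a core bound by FOXO factors, which act downstream of Tek, were in 0 of 8 windows, beside 3.65% of all promoters. The letters GGGCGG, bound by SP1, were in 5 of 8 windows and in 35.7% of all promoters. A match is a description of the letters and not a sign of binding.

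Per length of exon, the members spanned a wide range of levels (mean over 14 libraries, in RPKM, that is CPM divided by exon length in kilobases). Cldn5 was the highest at 39.7 ± 3.93 (SD, n = 14), and its lowest library, at 34.1, lay above the highest library of Mfsd2a, at 11.7. Mfsd2a followed at 9.91 ± 1.09, Vegfa at 8.72 ± 0.818, Kdr at 7.40 ± 0.606 and Tek at 5.65 ± 0.453. Tie1 at 4.95 ± 0.643 and Angpt1 at 4.92 ± 0.561 could not be put in order, since Tie1 was above Angpt1 in 7 of 14 libraries. Pecam1 at 4.33 ± 0.412 was below Angpt1 in 11 of 14 libraries. The lowest levels were those of Flt1, 2.08 ± 0.189, and Angpt2, 1.64 ± 0.262, whose ranges overlapped, with Flt1 above Angpt2 in 12 of 14 libraries. Among the other neighbours, Mfsd2a was above Vegfa in 12 of 14 libraries, and Vegfa was above Kdr, Kdr above Tek and Tek above Tie1 within each of the 14 libraries, although their ranges overlapped. Exon length counts all annotated exons of a gene together, 13504 bases for Flt1, and the order depends on it. In CPM, Flt1 averaged 28.1, above Pecam1 (26.9), Tek (26.6), Angpt1 (25.6), Tie1 (24.4) and Mfsd2a (22.3).

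The main comparison asked which of these genes differ between WT and KO brains once litter and sex are taken into account. Angpt2, the remodelling ligand, had the largest difference of the 10 genes and was lower in KO. Its level was between 5.57 and 7.31 CPM in WT (median 6.75) and between 4.59 and 7.09 CPM in KO (median 5.21). The groups overlapped, but 4 of 7 KO brains were below every WT brain and 2 of 7 WT brains were above every KO brain. The group means were 6.64 ± 0.641 CPM in WT and 5.48 ± 0.906 CPM in KO (SD, n = 7 each). The fitted log2 difference (KO minus WT) was -0.32 (SE 0.0624, 95% interval -0.46 to -0.19), which is a change of -20.1% with an interval from -27.2% to -12.4%. With edgeR's quasi-likelihood test the unadjusted p was 0.00014 and the Benjamini-Hochberg adjusted p over all 17927 genes (FDR) was 0.176, so Angpt2 did not pass the FDR threshold of 0.05. Ranked by p, it stood at place 13 of 17927.

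Angpt2 was lower in the KO brain of 7 of 7 numbered pairs, a count reached by 0.597% of all genes. The count depends on the numbering in litter B. With the partners there exchanged, KO replicate 3 (7.09 CPM) stands above WT replicate 2 (7.06 CPM). The log2 difference was -0.49 in pair 4, -0.42 in pair 5, -0.32 in pair 2, -0.29 in pair 7, -0.23 in pair 6, -0.21 in pair 1 and -0.035 in pair 3. All pairs but the third thus differed by at least 0.21 on the log2 scale, and the pair of litter F, where Capn15 goes against the labels, was in the middle of them. An exact sign-flip permutation test over the 7 pairs gave p = 0.0156, the smallest that 7 pairs can give (two-sided). This takes pair 7 as labelled and the pairs of litter B by number, and it leaves sex out. Sex differed within every pair but pair 7, with the KO brain male in pairs 4 and 5. Without litter F, Angpt2 was lower in KO in 6 of 6 pairs and the same exact test gave p = 0.0312, the smallest that 6 pairs can give. An exact permutation test of the 2 groups, which leaves litter and sex out, gave p = 0.0186 (two-sided).

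Whether Angpt2 was called depended on the test. The edgeR likelihood ratio test, which does not allow for uncertainty in each gene's spread, called it at an FDR of 0.00306, as 1 of 34 genes called, or 0.19% of all genes, of which those lower in KO made up 0.145%. The same test called it at 0.0157 without litter F, where it called 0.206% of all genes. DESeq2 gave an adjusted p of 0.158 and limma-voom one of 0.21. With the quasi-likelihood test the FDR was 0.317 without litter F and 0.232 with a block for each numbered pair. The log2 difference itself stayed between -0.36 and -0.28 over 29 alternative settings. The gene was chosen with results from these samples known, so its direction is not independent evidence.

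Angpt2 lies inside Mcph1, a gene of the opposite strand whose exons share 0 bases with those of Angpt2. Mcph1 averaged 21.1 CPM in WT and 20.6 CPM in KO, with a log2 difference of -0.03 (SE 0.042, edgeR FDR 0.99996).

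Markers of choroid plexus epithelium, the cells that secrete cerebrospinal fluid, were also mostly lower in KO. The 8 markers summed to between 65.6 and 83.4 CPM in WT and between 58.9 and 77.0 CPM in KO, and the sum was lower in KO in 7 of 7 pairs. Of single genes, 0.597% were lower in KO in 7 of 7 pairs, and the share of such sums was not computed. The median log2 difference of the 8 was -0.15, and none was at 0, the lowest being Kcnj13 with a mean of 3.49 CPM. Of the 8, 6 had an unadjusted p under 0.05, beside 5.14% of all genes, and 0 passed the FDR threshold. Of these 6, Prlr was higher in KO, at 0.20, and the others, Folr1, Clic6, Otx2, Kcnj13 and Aqp1, were lower. Across the 14 brains, with the genotype means removed, Angpt2 followed this sum with Pearson r = 0.785 (permutation p = 0.00097, adjusted over 10 marker lists 0.0097) and Spearman rho = 0.741 (permutation p = 0.00327, adjusted 0.0327). The r was 0.756 without the 2 brains farthest from the median sum, and 0.323 once litter was removed as well, so the relation did not hold at this size within litters. The permutations left litter out, so these p-values can be too small. No other list passed after adjustment. The next in size were oligodendrocyte precursors (r = -0.609) and astrocytes and radial glia (r = -0.605), both with an adjusted permutation p of 0.0735. With litter removed, neurons had the largest r in size, -0.74. The part of choroid plexus markers in the Angpt2 difference was not tested. Meningeal fibroblast markers summed to 263 to 396 CPM in WT and 298 to 364 CPM in KO (10 markers, top marker Col1a2 at 141 CPM), lower in KO in 5 of 7 pairs, and the lowest of them, Foxc2, averaged 1.92 CPM. Of the 10, 7 were below 0, and 3 had an unadjusted p under 0.05, beside 5.14% of all genes, with 0 at an FDR under 0.05. These 3 were lower in KO, with log2 differences of -0.39 for Ogn (SE 0.0735, edgeR FDR 0.176), -0.24 for Lum and -0.14 for Slc6a13. Their part in the Angpt2 difference was not tested either. The 10 endothelial markers summed to 258 to 329 CPM in WT and 261 to 321 CPM in KO, lower in KO in 3 of 7 pairs, and the lowest of them, Emcn, averaged 5.69 CPM. They include the members Kdr, Cldn5, Flt1, Pecam1 and Tie1, so this sum is not separate from the member values.

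**Figure D1:**
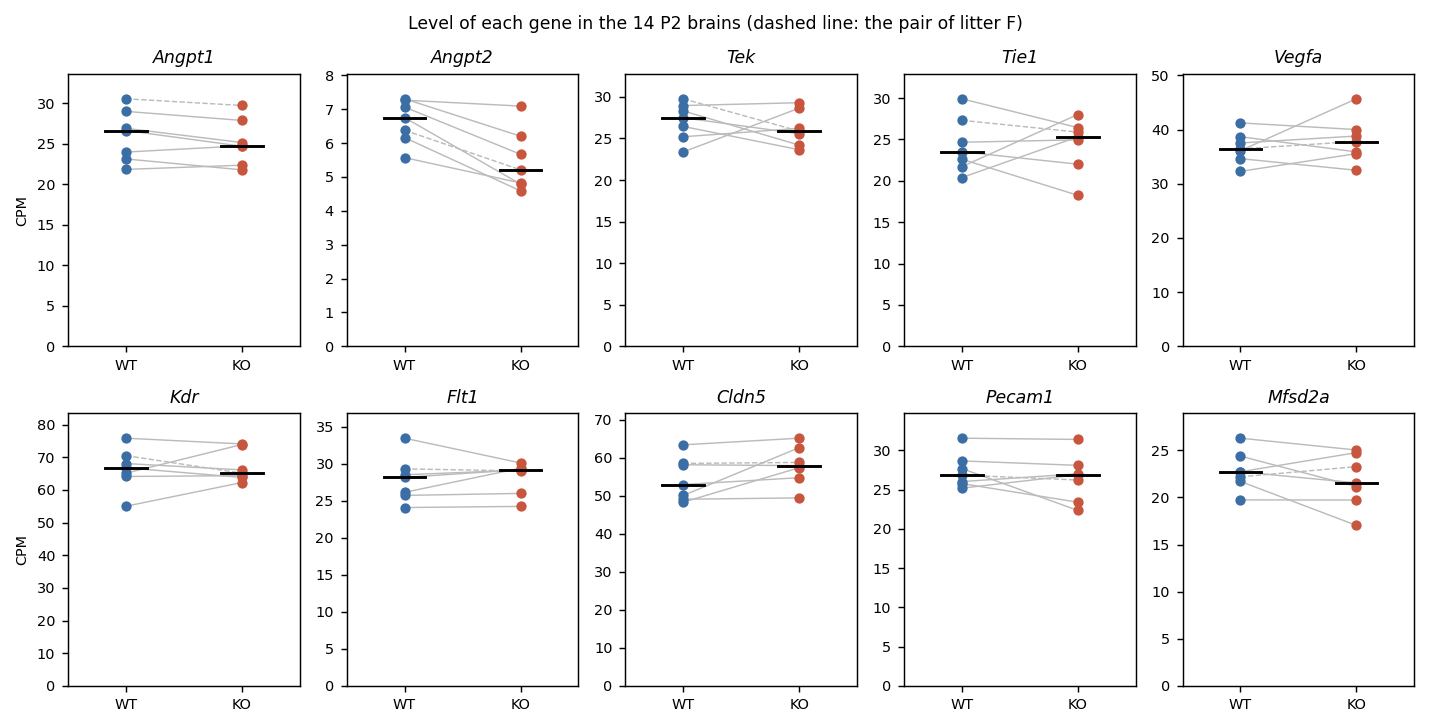
Level of each of the 10 genes (vertical axis, CPM, starting at 0) in the 7 WT and 7 KO brains. Points are brains, thin lines join the numbered pairs (dashed for litter F) and bars are group medians. Angpt2 is lower in KO in 7 of 7 pairs, with medians of 6.75 and 5.21 CPM, whereas the lines of the other genes run both ways.

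Angpt1, the stabilising ligand, ranged from 21.8 to 30.6 CPM in WT (median 26.6) and from 21.8 to 29.7 CPM in KO (median 24.7). The groups covered nearly the same range. Its log2 difference was -0.04 (SE 0.0339, 95% interval -0.12 to 0.03, edgeR FDR 0.99996), and it was lower in KO in 5 of 7 pairs. Of its 5205 exon bases, 737 are shared with Gm17473 on the opposite strand, and the strand setting of the counts is not given in the sources used here. Within each library, the log2 ratio of Angpt2 to Angpt1 averaged -1.96 ± 0.291 in WT and -2.20 ± 0.335 in KO, and was lower in KO in 7 of 7 pairs. The ratio of Angpt2 to Pecam1 was also lower in 7 of 7 pairs, by 0.23 on average, and that of Angpt2 to Tek in 6 of 7 pairs. These ratios use the numbered pairs, were chosen with the Angpt2 values known and are given as a description.

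The receptors of these ligands showed no difference of this size. Tek ranged from 23.4 to 29.8 CPM in WT (median 27.5) and from 23.6 to 29.3 CPM in KO (median 25.9), with a log2 difference of -0.05 (SE 0.0561, 95% interval -0.17 to 0.07). Tie1 ranged from 20.4 to 29.9 CPM in WT (median 23.5) and from 18.3 to 28.0 CPM in KO (median 25.3), with a log2 difference of 0.02 (SE 0.0707, 95% interval -0.13 to 0.17). Both receptors overlapped almost fully between the groups, and each was lower in KO in 4 of 7 pairs. In both, pair 2 stood well above 0, at 0.29 for Tek and 0.37 for Tie1, and the lowest pair was at -0.23 for Tek and -0.31 for Tie1. Without litter F the log2 difference was -0.02 for Tek and 0.04 for Tie1.

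Vegfa, the growth factor, ranged from 32.3 to 41.2 CPM in WT (median 36.4) and from 32.5 to 45.7 CPM in KO (median 37.8). The highest value belonged to KO replicate 6, and the 2 ranges otherwise coincided. The log2 difference was 0.04 (SE 0.0482, 95% interval -0.06 to 0.14), higher in KO in 4 of 7 pairs. Its signalling receptor Kdr ranged from 55.0 to 75.9 CPM in WT (median 66.8) and from 62.3 to 74.1 CPM in KO (median 65.1), with a log2 difference of 0.02 (SE 0.0434, 95% interval -0.07 to 0.11). Flt1, the receptor that limits Vegfa, ranged from 24.1 to 33.5 CPM in WT (median 28.2) and from 24.3 to 30.1 CPM in KO (median 29.2), with a log2 difference of 0.03 (SE 0.0383, 95% interval -0.05 to 0.11). Without litter F the log2 difference of Kdr was 0.04. For Kdr and Flt1 the WT brains alone spanned the values of all KO brains. The log2 ratio of Kdr to Flt1 was 1.25 ± 0.054 in WT and 1.25 ± 0.092 in KO.

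Cldn5, the tight junction claudin, was the other gene with an unadjusted p under 0.05. It ranged from 48.3 to 63.4 CPM in WT (median 52.9) and from 49.4 to 65.1 CPM in KO (median 57.9). The groups overlapped across most of their range, and 6 of 7 pairs were higher in KO. Most of the difference lay in 2 pairs, with 0.32 in pair 2 and 0.25 in pair 5, while the remaining pairs were between -0.0057 and 0.048. The fitted log2 difference was 0.10 (SE 0.0435, 95% interval 0.0033 to 0.19), and the edgeR quasi-likelihood test gave an unadjusted p of 0.0434 and an adjusted p of 0.959. An exact sign-flip permutation test over the 7 pairs gave p = 0.0312, and an exact permutation test of the 2 groups gave p = 0.216 (both two-sided). Both tests leave sex out, and the sign-flip test takes the pairs of litter B by number. Without litter F the sign-flip p was 0.0625 over 6 pairs (exact). Without WT or KO replicate 5 the log2 difference was 0.04.

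Pecam1 ranged from 25.2 to 31.6 CPM in WT (median 26.9) and from 22.4 to 31.4 CPM in KO (median 26.9), with a log2 difference of -0.06 (SE 0.0473, 95% interval -0.16 to 0.04). Mfsd2a ranged from 19.7 to 26.3 CPM in WT (median 22.7) and from 17.0 to 25.0 CPM in KO (median 21.5), with a log2 difference of -0.04 (SE 0.0464, 95% interval -0.14 to 0.06). In both genes 2 KO brains were below every WT brain and the rest lay among them. The log2 ratio of Cldn5 to Pecam1 was higher in KO in 7 of 7 pairs, with a mean of 0.98 ± 0.085 in WT and 1.13 ± 0.132 in KO. This was 1 of 6 ratios examined and is a description with no test.

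Of the 10 genes, 0 passed the FDR threshold for genotype with edgeR's quasi-likelihood test, beside 0.00558% of all genes tested, and 2 had an unadjusted p under 0.05, beside 5.14%. These were Angpt2, lower in KO as were 2.26% of all genes at that p, and Cldn5, higher as were 2.88%. DESeq2 and limma-voom also called 0 of the 10, and the likelihood ratio test called Angpt2. The members split evenly, with 5 above and 5 below 0, and their median log2 difference was -0.01, against 0.0015 over all genes. For the 8 genes other than Angpt2 and Cldn5, the 95% intervals lay within -0.17 and 0.17 on the log2 scale.

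**Figure D2:**
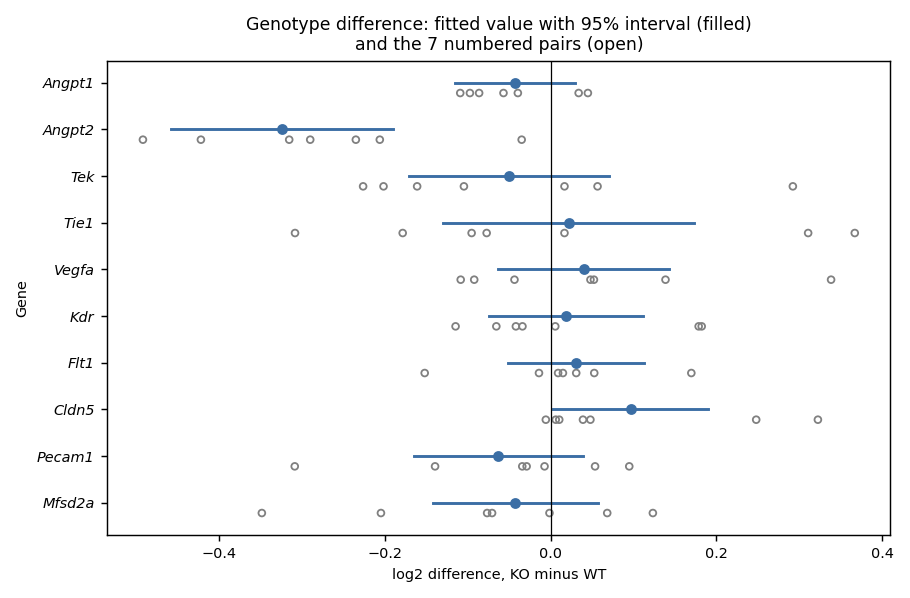
Log2 difference between KO and WT (horizontal axis) for each gene. Filled points are fitted values with 95% intervals, and open points below them are the 7 numbered pairs. The interval of Angpt2, -0.46 to -0.19, stands clear of 0, that of Cldn5 begins at 0.0033, and those of the other 8 genes include 0.

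Litter gave more calls among these genes than genotype. With edgeR's quasi-likelihood F test, 6 of 10 members differed between litters at an FDR under 0.05, beside 29.6% of all genes and 36.4% of genes with a mean of 5 to 70 CPM. They were Angpt1 (FDR 0.000499), Flt1 (0.00862), Mfsd2a (0.0116), Cldn5 (0.0182), Angpt2 (0.0258) and Pecam1 (0.0324). Kdr (0.0547), Vegfa (0.0548) and Tie1 (0.0786) missed the threshold, as did Tek (0.431). Litter and whatever else the brains of a litter share cannot be told apart.

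Angpt1 had the strongest litter pattern. Its litter means ran from 22.3 CPM in litter B to 30.1 CPM in litter F, 1.35 times as high. Litter held 96.5% of its sum of squares on the log2 scale, after the genotype means were subtracted. Both brains of a numbered pair lay close together, with differences between -0.11 and 0.05 on the log2 scale. As a ratio of highest to lowest, Tie1 had the widest litter means, from 20.4 CPM in litter E to 28.2 CPM in litter A (1.38 times), although litter held only 61.1% of its squares. Tek had the narrowest ratio, 1.16, from 25.0 CPM in litter E to 29.1 CPM in litter A. Although Tek was not called, litter held 39.5% of its squares. The share to be found without a litter difference was not computed.

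Litter A was the highest for 7 of the 10 genes, including Kdr (75.0 CPM), Flt1 (31.8 CPM), Cldn5 (64.2 CPM), Pecam1 (31.5 CPM) and Mfsd2a (25.7 CPM). Angpt2 ran the other way. It was lowest in litter A, at 5.20 CPM, and highest in litter B, at 6.77 CPM, where Angpt1, Vegfa, Kdr, Flt1 and Mfsd2a were lowest. Litter E was the lowest for Tek, Tie1, Cldn5 and Pecam1 and was second only to litter B for Angpt2, at 6.75 CPM. Several of the litter calls were lost without a brain of litter A. Calls over all genes fell as well, from 5301 to 3809 without KO replicate 1 and to 3843 without WT replicate 1. Without WT replicate 2, of litter B, they fell to 3626. The losses thus cannot be read as a trait of these genes. Without KO replicate 1 the FDR was 0.0782 for Angpt2, 0.0668 for Cldn5, 0.191 for Pecam1 and 0.0676 for Mfsd2a, and without WT replicate 1 it was 0.0765 for Angpt2, 0.0933 for Cldn5 and 0.156 for Pecam1. The Angpt2 call was also lost without WT replicate 3 (0.0544), 5 (0.0574) or 6 (0.056), that of Cldn5 without KO replicate 6 (0.0664), and that of Pecam1 without KO replicate 3 (0.0509) or 6 (0.0739). The calls of Angpt1 and Flt1 held without any 1 brain. DESeq2 did not call Angpt2 (adjusted p 0.0765). In turn, Kdr was called without WT replicate 4 or 7 or KO replicate 4, 5 or 7 (FDR 0.023 to 0.0488), Vegfa without WT replicate 1 or 6 or KO replicate 6 (0.00563 to 0.0461) and Tie1 without WT replicate 2, 5 or 6 or KO replicate 5 (0.0318 to 0.0485). DESeq2 and the likelihood ratio test also called these 3 genes.

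**Figure D3:**
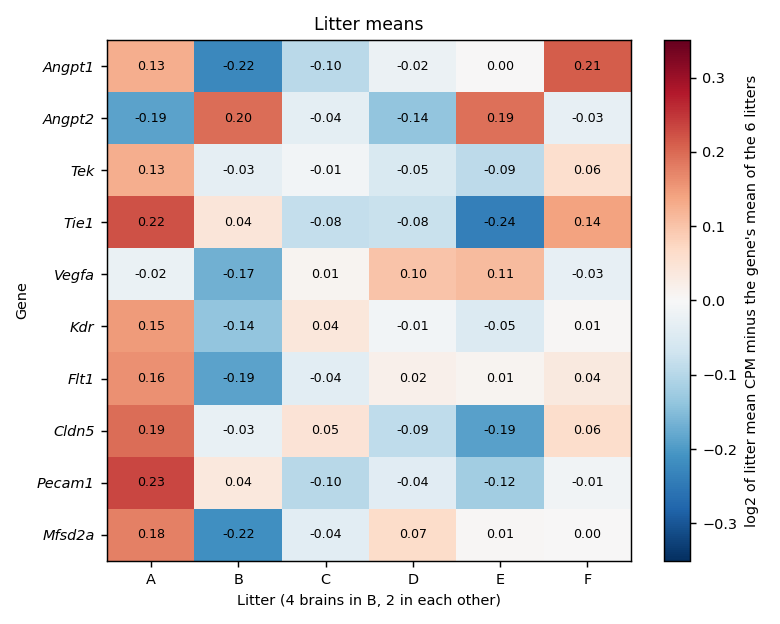
Mean level of each gene in each litter, as log2 of the litter mean CPM minus the gene's mean over the 6 litters (colour and printed value). Litter A is the highest for 7 genes and the lowest for Angpt2, and litter B is the lowest for 5 genes and the highest for Angpt2.

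Sex gave no call among the 10 genes, beside 0.0669% of all genes, and 0 had an unadjusted p under 0.05 in edgeR's quasi-likelihood test, beside 5.04%. The largest differences (male minus female, log2) were -0.13 for Angpt2 (SE 0.0672) and 0.10 for Mfsd2a (SE 0.0502), both with an edgeR FDR of 0.927. In KO brains Angpt2 was between 4.82 and 7.09 CPM in the 4 females and between 4.59 and 5.21 CPM in the 3 males, and in WT it was between 6.16 and 6.75 CPM in the 2 females and between 5.57 and 7.31 CPM in the 5 males. A different genotype effect in the sexes was called for 0 of 10 members, beside 0.00558% of all genes, and 0 had an unadjusted p under 0.05, beside 6.85%. Only litter F held a WT and a KO brain of the same sex, so this term rests on that litter, and its standard errors, from 0.193 to 0.382, were wide.

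Levels of the 10 genes were then compared brain by brain, with the genotype means removed. Of 45 pairs of genes, 20 had a permutation p under 0.05 and 9 passed after adjustment over the 45, of which 8 were positive. The share of such pairs among other genes was not computed, and 29.6% of all genes differed between litters. The counts thus cannot be read as a trait of these genes. Here too the permutations left litter out, so the p-values of these correlations can be too small. One set joined the Tie receptors with junction genes. Tie1 and Cldn5 had Pearson r = 0.865 (permutation p = 9e-05, adjusted 0.00405) and Spearman rho = 0.873 (permutation p = 0.00015), with r = 0.773 without the 2 farthest brains. Tek and Cldn5 had r = 0.84 (permutation p = 0.0002, adjusted 0.0045) and rho = 0.842 (permutation p = 0.00028), and Tek and Tie1 had r = 0.78 (adjusted permutation p = 0.00743) and rho = 0.815. Pecam1 followed Tie1 at r = 0.76 (adjusted permutation p = 0.00917) and Cldn5 at r = 0.684 (adjusted permutation p = 0.0343), the latter with an adjusted Spearman p of 0.0607. Without the 2 farthest brains r was 0.844, 0.815, 0.701 and 0.511 for these 4 pairs.

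The other set held the VEGF receptors. Kdr and Flt1 had r = 0.836 (permutation p = 0.0003, adjusted 0.0045) and rho = 0.82 (permutation p = 0.00071), with r = 0.695 without the 2 farthest brains. Flt1 also followed Angpt1 at r = 0.806 (adjusted permutation p = 0.00484, rho = 0.763) and Mfsd2a at r = 0.758 (adjusted permutation p = 0.00917, rho = 0.697), with r = 0.899 and 0.696 without the 2 farthest. Vegfa itself was in none of the 9 pairs, and its highest r was 0.592, with Flt1.

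The negative pair was Angpt2 with Mfsd2a, at r = -0.786 (permutation p = 0.00085, adjusted 0.00743) and rho = -0.705 (permutation p = 0.00629), with r = -0.581 without the 2 farthest brains. Angpt2 had a negative r with all 9 other members, from -0.15 with Pecam1 to -0.79 with Mfsd2a, and by Pearson r the other 8 did not pass after adjustment. By Spearman, Angpt2 with Kdr passed as well (rho = -0.723, adjusted permutation p = 0.0292), with r = 0.05 once litter was removed.

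Since levels differed between litters, the correlations were computed again with litter removed as well, without p-values. In the Tie set, r was 0.888 for Tie1 and Cldn5, 0.83 for Tek and Cldn5 and 0.709 for Tek and Tie1. The pairs with Pecam1 were lower, at 0.587 with Tie1 and 0.529 with Cldn5, below the 0.684 of the weakest pair called before. Kdr and Flt1 stood at 0.631, and Angpt2 and Mfsd2a at -0.661. The pairs of Flt1 with Angpt1 (0.204) and with Mfsd2a (-0.135) did not hold within litters. The median r of Angpt2 with the other members was -0.54 before and -0.08 after litter was removed.

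**Figure D4:**
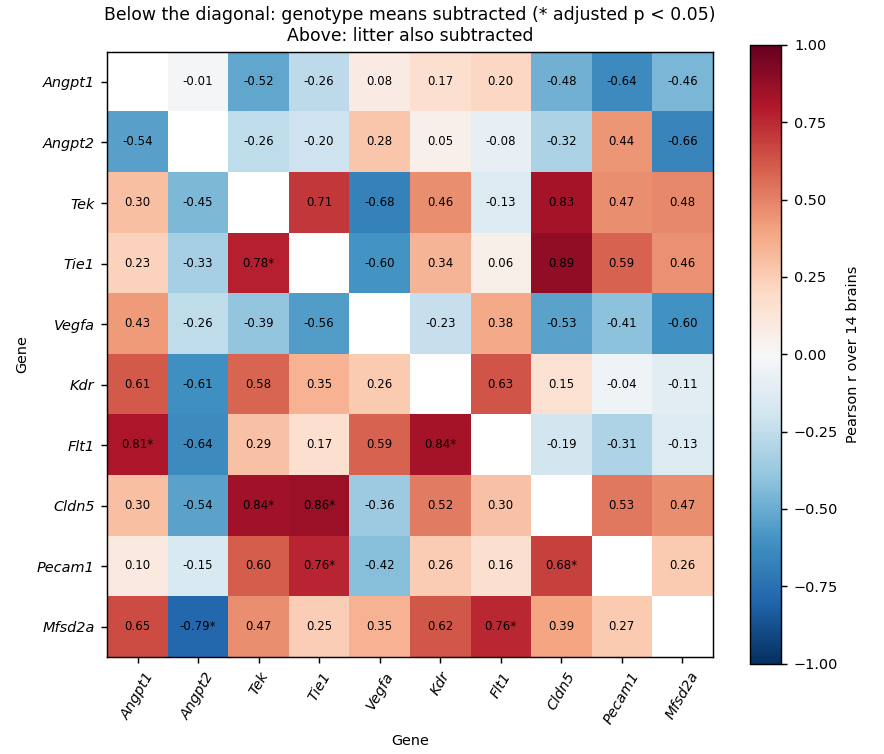
Pearson r between each 2 genes over the 14 brains. Below the diagonal the genotype means are removed and a star marks an adjusted p under 0.05 (9 pairs). Above it litter is removed as well, which leaves fewer than 14 independent values. Tie1 with Cldn5 is high on both sides (0.865 and 0.888), whereas Angpt1 with Flt1 is high only in the lower part (0.806 and 0.204).

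The genes whose levels across the 14 brains were most like those of 3 members were listed from 15226 genes with a mean of at least 1 CPM, again with genotype means removed. For Angpt2 they were Sall3 (r = 0.906), Rad18 (0.891), Cyp4f13 (0.891), Denr (0.878) and Sult1a1 (0.872). Pecam1 was most like Slc45a1 (0.901), Cib2 (0.89), Nxpe4 (0.863), Slc40a1 (0.862) and Gask1b (0.859). Vegfa was most like Ap3d1 (0.915), Sdhaf3 (0.89), Cgn (0.885), Acot11 (0.883) and Ccdc82 (0.869). None of these 15 genes was a member, and they share the litters and libraries with it.

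Wider lists of vascular genes, which include the 10 members, were read in the same genotype fit. Over 7 lists with 99 different genes measured, 0 genes passed the FDR threshold and 6 had an unadjusted p under 0.05, against the 5.14% found over all genes. The median log2 difference of the 99 was 0.007, with 53 above and 46 below 0. Angpt4 and Sh2d2a were not found among the counted genes.

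In the angiopoietin and Tie list 6 of 8 genes were below 0 (median -0.05), from Angpt2 to Ptprb, the phosphatase that restrains Tek, at 0.07 (SE 0.0581). The VEGF list of 11 genes had a median of 0.02. Its 10 genes with a mean of at least 1 CPM ran from Pgf, a ligand of Flt1, at -0.10 (SE 0.08) to Plcg1, an enzyme downstream of Kdr, at 0.04 (SE 0.0341), and the other, the ligand Vegfd, was at 0.16 (SE 0.192). Among 13 genes of tip and stalk cells, the leading and trailing cells of a vessel sprout, the median was -0.0052. The Notch ligand Jag1 had the lowest value, -0.10 (SE 0.0336, unadjusted p = 0.0133, edgeR FDR 0.784), and the guidance receptor Robo4 the highest, 0.16 (SE 0.0846).

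Of 20 pan-endothelial genes, 13 were above and 7 below 0 (median 0.02), from the transcription factor Erg at -0.09 (SE 0.0792) to the TGF-beta co-receptor Eng at 0.12 (SE 0.0667). In the blood-brain barrier list 9 of 20 were above 0 (median -0.02), from the organic anion transporter Slc22a8 at -0.17 (SE 0.0637, unadjusted p = 0.0195, edgeR FDR 0.865) to Ly6c1 at 0.22 (SE 0.106). The Wnt list, the pathway that induces barrier properties in brain vessels, had 8 of 15 genes above 0 (median 0.007). Reck, part of the receptor complex for Wnt7 ligands, was at -0.14 (SE 0.0571, unadjusted p = 0.0242, edgeR FDR 0.886), the co-receptor Lrp5 was at 0.11 (SE 0.0458, unadjusted p = 0.031, edgeR FDR 0.933), and the transcription factor Foxq1 was the highest at 0.17 (SE 0.0838). Of 12 hypoxia-responsive genes 9 were above 0 (median 0.01), from the hexokinase Hk2 at -0.04 (SE 0.0608) to adrenomedullin, Adm, at 0.22 (SE 0.174). Apart from the angiopoietin list, the list medians were between -0.02 and 0.02.

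**Figure D5:**
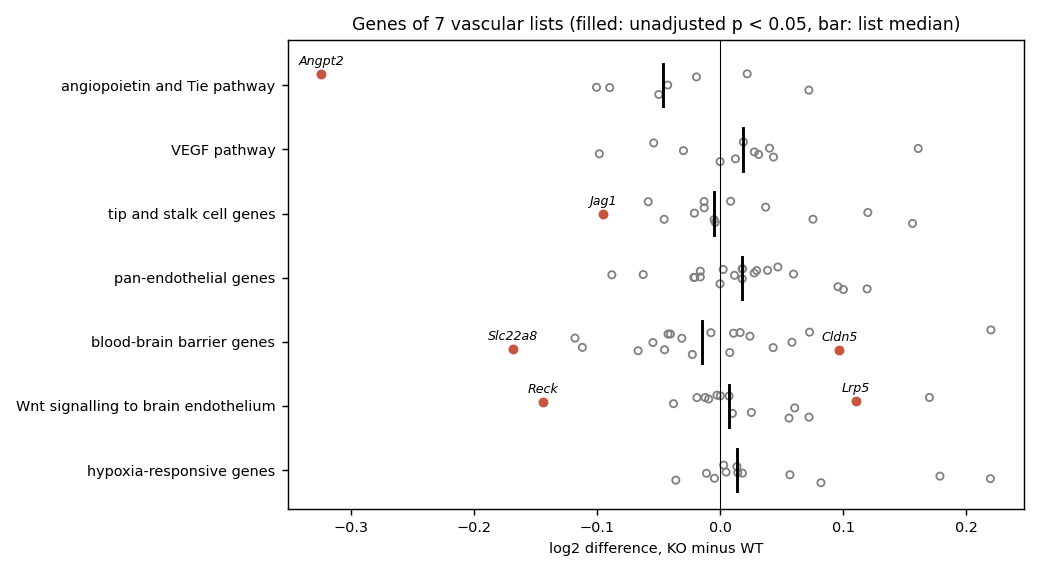
Log2 difference between KO and WT (horizontal axis) for each gene of 7 vascular lists (rows, with random vertical spread). Filled points have an unadjusted p under 0.05, open points do not, and bars are list medians. Angpt2, at -0.32, is the gene farthest from 0 in any list, and the 6 filled points fall on both sides of 0.

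Markers of other cells in or near vessels were summed in each brain. Pericyte and mural cell markers summed to 324 to 414 CPM in WT and 312 to 396 CPM in KO (10 markers, 5 above and 5 below 0, top marker Rgs5 at 136 CPM), lower in KO in 5 of 7 pairs. Of the 10, 2 had an unadjusted p under 0.05, beside 5.14% of all genes, and 0 passed the FDR threshold. These were Acta2 at -0.16 (SE 0.0706) and Tagln at -0.23 (SE 0.0955), both lower in KO. Red blood cell markers ranged widely, from 31.2 to 325 CPM in WT and from 36.1 to 242 CPM in KO (7 markers, top marker Hbb-bs at 92.8 CPM), lower in KO in 3 of 7 pairs. Microglial markers summed to 104 to 131 CPM in WT and 109 to 131 CPM in KO, and lymphatic markers to 51.6 to 63.9 and 54.5 to 62.0 CPM. The lymphatic sum rested on 3 measured markers, with Ccl21a not found and Prox1 the highest at 32.3 CPM. Whether it came from lymphatic cells was not tested. Neuronal markers summed to 6582 to 6934 and 6701 to 6900 CPM, those of astrocytes and radial glia to 1257 to 1780 and 1363 to 1709 CPM, and those of oligodendrocyte precursors to 515 to 661 and 536 to 640 CPM. Of all 10 lists, choroid plexus epithelium was the one whose sum was lower in KO in 7 of 7 pairs.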

How the data were processed

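Ribosomal RNA-depleted total RNA from whole P2 brain was sequenced. The authors deposited whole-number read counts per gene, unnormalised, with a table of symbols. Per the labels, reads were trimmed with Trimmomatic, aligned with STAR to GRCm38 and counted with featureCounts. The paper's methods name another library kit and counter, and the annotation release and strand setting are not given in the sources used here. Genotype was read from the labels. The column headers gave each brain's litter and sex, and same-numbered WT and KO brains share a litter. The correlation of their deviations from the group means ranged from -0.47 to 0.44 over the 7 pairs (15227 genes). Every label gives the same batch.

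All 17927 genes were tested with edgeR 4.0.16 (R 4.3.3, TMM factors, quasi-likelihood F test, litter, sex and genotype as terms, Benjamini-Hochberg FDR threshold 0.05), and the scripts were tested on simulated data. The alternatives used DESeq2 1.42.0 and limma 3.58.1, other scalings and covariates, a count filter, a replicate block and sets of libraries left out. The filter kept every gene. Correlations used log2 CPM (prior count 2) and 100000 permutations, which left litter out. Lengths came from GENCODE M21, which held 17909 of the genes. No 2 libraries agreed within sampling noise (chi-square per gene at least 4.66). At the lowest total, 3 counts are 0.0797 CPM.

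The 10 members and all lists were chosen with earlier results of these data known. Named genes were the members, Capn15, the highest and lowest gene of each list with a mean of at least 1 CPM, genes past the threshold, the 5 genes most like Angpt2, Pecam1 and Vegfa, and the top marker of each cell type. List genes with an unadjusted p under 0.05, Vegfd, Mcph1 and the single choroid plexus, meningeal and mural markers were named after their values were seen. The comparisons of Angpt2 with marker sums were also chosen then.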

Additional observations from a re-analysis of the deposited data

Results flagged for a closer look

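No library stood apart in either group for any of the 10 vascular genes. Over these genes and Capn15, 22 groups of 7 brains were compared, chance gives about 1.1 such libraries, and 2 were found, both for Capn15. WT replicate 7 was the lowest WT brain, at 18.7 CPM, with a gap to the next brain of 0.761 of the group's range (log2 scale). KO replicate 7 was the highest KO brain, at 20.2 CPM, with a gap of 0.647 of the range. The genotype effect on Capn15 also differed between the sexes, by 2.16 on the log2 scale (SE 0.286, edgeR quasi-likelihood FDR 0.0475). This term rests on the pair of litter F, which holds the 2 libraries above.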

How the results depend on the processing

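The genotype count of 1 gene in 17927 became 22 with DESeq2, 34 with the likelihood ratio test, 2 with genotype and litter alone, 7 without litter F and 0 to 7 with 1 brain left out (7 without KO replicate 7). With the replicate block it was 0, and 811 genes then had an unadjusted p under 0.05. Settings chosen after seeing the data gave 37 (likelihood ratio test without litter F), 38 (the same without KO replicate 7), 34 (likelihood ratio test with replicate block) and 12 (DESeq2 with replicate block). The sex count of 12 became 19 with DESeq2 and 36 with the likelihood ratio test, and was 11 to 16 with 1 brain left out. The litter count of 5301 became 5146 with DESeq2 and 6711 with the likelihood ratio test, and was 3626 to 5770 with 1 brain left out. The count of 1 for genotype by sex became 0 with upper quartile factors, 17 with DESeq2, 48 with the likelihood ratio test, 2 with limma-voom, 0 with the replicate block and 0 to 4 with 1 brain left out. It could not be fitted without a brain of litter F. Of the 9 gene pairs called, at r of at least 0.684 in size, 3 pairs reached that size with litter removed.

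No member but Angpt2 was called for genotype under any of 29 alternatives. With 1 brain left out the log2 difference changed sign for Tie1 (-0.0657 to 0.0883), Kdr (-0.0365 to 0.0488), Pecam1 (-0.138 to 0.0157) and Mfsd2a (-0.0705 to 0.00513), all without a call, and Angpt2 ranged from -0.36 to -0.30. The replicate block changed no call of a member. Why the calls differed between tests was not tested. Angpt2 had the lowest counts of the members, with as few as 199 in a library.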
